A study of Mus musculus with 6 samples.

Results

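Cells sense oxygen through the hypoxia-inducible factors (HIF). An oxygen-sensitive alpha subunit pairs with a constant beta subunit, binds DNA at hypoxia response elements and raises genes of glycolysis, blood vessel growth and survival. When oxygen, iron and 2-oxoglutarate are at hand, prolyl hydroxylases of the EGLN family mark the alpha subunit, the von Hippel-Lindau protein recognises the mark, and the subunit is degraded. In macrophages lipopolysaccharide (LPS), a bacterial cell wall component, is also known to raise HIF-1 alpha in the presence of oxygen, partly through transcription of its gene. Much of this control acts on protein, which was not measured here.

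The genes described are 10 of the 21604 gene symbols in a deposited RNA sequencing count table, chosen by symbol. They are the alpha subunits Hif1a and Epas1, the beta subunit Arnt, the prolyl hydroxylases Egln1, Egln2 and Egln3, the recognition subunit Vhl, and the hypoxia targets Vegfa, Ndrg1 and Adm. All libraries came from RAW 264.7, an established mouse macrophage-like line (labelled wild type). One group of 3 samples received LPS at 100 ng/mL for 24 h, and the other group of 3 samples received the same LPS with PE-CUR at 2 mg/mL for 24 h. PE-CUR is the labels' name for the treatment in a series titled for curcumin-loaded Pickering emulsions, which are droplets stabilised by solid particles. Both groups carry LPS, and cells without it, the emulsion alone and free curcumin are not analysed here. The labels give no oxygen level and no hypoxic sample, and they do not say whether replicates were separate cultures, so every p-value rests on the spread among 6 samples that may differ only technically.

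Total counts per library were between 28530750 and 35276533. Macrophage markers (10 of 10 in the table, Cd68 and Csf1r among them) summed to between 11835 and 12341 CPM (counts scaled to a common library total) in the LPS libraries and between 9853 and 10664 CPM with PE-CUR. Lyz2 was the largest part of this sum. Of the 10 markers, 2 were called higher and 4 lower, beside 30.8% and 32.7% of all genes tested. Adgre1, which encodes F4/80, had 2869, 2525 and 3274 counts in LPS and 1003, 844 and 686 with PE-CUR. Csf1r went the other way, with 30158, 27661 and 29912 counts in LPS and 42708, 37856 and 32521 with PE-CUR. So did Cd14, with 38294, 41303 and 39903 counts in LPS and 48076, 52159 and 45996 with PE-CUR. The libraries also held transcripts used as markers of other tissues. Hepatocyte markers (10 of 10 in the table, Alb and Apoa1 among them) summed to between 50.1 and 69.9 CPM in the LPS libraries, and to 0.155, 0.0568 and 81.7 CPM in LPS plus PE-CUR replicates 1, 2 and 3. Fibroblast markers (6 of 7 in the table) summed to 12.3 CPM in LPS plus PE-CUR replicate 2 and to at most 2.78 CPM in each other library. Col1a1, Col1a2 and Col3a1 were most of that sum (180, 187 and 57 counts), and Dcn had 0 counts there. Pdgfra went the other way, with 18, 40 and 40 counts in LPS and 3, 2 and 2 with PE-CUR. Of the 3 fibroblast markers tested, 2 were called lower and 0 higher, beside 32.7% and 30.8% of all genes tested. Pdgfrb had 11, 14 and 17 counts in LPS and 1, 7 and 2 with PE-CUR. Pdgfra and Pdgfrb passed the filter on low counts only through their LPS libraries, so a lower call of either supports nothing further. Endothelial markers (7 of 8 in the table) summed to between 20.9 and 25.2 CPM in LPS and between 4.19 and 6.13 CPM with PE-CUR. Vwf was the largest part of this sum, with 515, 669 and 647 counts in LPS and 111, 163 and 150 with PE-CUR. Tek and Esam had at most 5 counts in any library, and Emcn had 1 count in 1 library and 0 in the others. Whether the endothelial marker transcripts came from endothelial cells or from the line itself was not tested. Epithelial markers (5 of 6 in the table) summed to between 0.844 and 1.19 CPM in LPS and between 1.16 and 3.13 CPM with PE-CUR. Of 3 tested, 2 were called higher and 0 lower, beside 30.8% higher and 32.7% lower of all genes tested. No epithelial marker had more than 43 counts in any library. Muscle and adipocyte markers summed to at most 2.69 CPM in any library. The part of these transcripts in the results was not tested beyond the values given beside them.

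Promoter sequence from RefSeq (build GRCm38.p6, the assembly of mm10) was at hand for 8 of the 10 genes, as 250 bases before an annotated transcript start. That start can differ from the end of the gene's span given further on. The Hif1a sequence lies inside the span of the gene, before a start downstream of its first base, and the Arnt sequence runs past the first base of its gene. The core of the hypoxia response element was searched as ACGTG and GCGTG on both strands, where the opposite strand reads CACGT and CACGC. At least 1 match lay before an annotated start of 7 of the 8 genes. Egln2 and Vegfa have more than 1 promoter sequence each. Counted by promoter, 8 of 10 held a match, and 38.6% of all 32851 promoters of this length hold one. Hif1a and Adm, the members that rose, and Arnt and Vegfa, members that fell, are shown with matches in capitals.

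Hif1a (chr12:73907617-73907866, plus strand): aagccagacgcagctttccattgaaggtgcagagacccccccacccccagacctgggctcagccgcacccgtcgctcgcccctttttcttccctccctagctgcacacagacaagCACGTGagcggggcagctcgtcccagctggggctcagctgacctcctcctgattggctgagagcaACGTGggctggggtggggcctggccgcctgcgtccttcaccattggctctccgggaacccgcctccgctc
Adm (chr7:110627407-110627656, plus strand): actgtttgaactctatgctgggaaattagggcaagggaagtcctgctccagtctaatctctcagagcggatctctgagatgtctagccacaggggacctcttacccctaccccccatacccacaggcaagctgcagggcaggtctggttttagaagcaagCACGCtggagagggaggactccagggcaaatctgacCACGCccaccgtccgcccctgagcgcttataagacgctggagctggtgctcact
Arnt (chr3:95434140-95434389, plus strand): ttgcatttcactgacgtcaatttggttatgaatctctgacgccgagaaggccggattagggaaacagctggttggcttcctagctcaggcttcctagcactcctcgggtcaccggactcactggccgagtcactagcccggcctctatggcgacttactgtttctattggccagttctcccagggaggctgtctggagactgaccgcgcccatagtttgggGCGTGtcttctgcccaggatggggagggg
Vegfa (chr17:46032378-46032627, minus strand): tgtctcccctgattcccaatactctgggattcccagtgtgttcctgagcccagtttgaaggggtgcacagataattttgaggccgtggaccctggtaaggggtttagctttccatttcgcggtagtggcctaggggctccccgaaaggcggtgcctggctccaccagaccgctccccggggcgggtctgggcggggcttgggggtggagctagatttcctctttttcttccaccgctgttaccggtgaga

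The first match of Hif1a is the palindrome CACGTG, which reads as ACGTG on both strands and begins 135 bases before that transcript start. Its next match begins 70 bases before it. The matches of Adm begin 90 and 54 bases before its transcript start and that of Arnt 29 bases before its own. The sequence before the upstream start of Vegfa holds none in this window, and that before a second annotated start holds 2. That second sequence (46025164 to 46025413) lies inside the span of the gene, so its matches are not upstream of the whole gene. Vegfa counts among the 7 genes with a match only through it. The motif thus lay before Hif1a and Adm, which rose, and before Arnt, which fell, with Vegfa as just described. The sequence of Vhl, which fell, held no match, and no sequence was at hand for Ndrg1. Egln1 and Egln2, which did not pass the test, and Egln3, which was not tested, also held matches. A match is a run of letters and not a measured binding site.

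In cells given LPS with PE-CUR, RNA of Hif1a was 1.63-fold higher and that of Adm 3.94-fold higher than in cells given LPS alone. RNA of Ndrg1 was 2.59-fold lower, and Arnt, Vhl and Vegfa were lower by smaller amounts. The hydroxylase genes Egln1 and Egln2 did not pass the test, and Epas1 and Egln3 were too low to be tested. In bulk RNA, fewer cells with a transcript and less of it per cell cannot be told apart. Of the 8 members that passed the filter on low counts, 2 were higher and 4 were lower by the quasi-likelihood test of edgeR, with p-values adjusted by Benjamini and Hochberg's method over all genes and a threshold of 0.05. The lower calls were 2 without LPS replicate 2, without LPS plus PE-CUR replicate 2 or without LPS plus PE-CUR replicate 3. Much of the transcriptome differed between the groups: 63.4% of the 13014 genes tested were called, 30.8% as higher and 32.7% as lower. A call is thus the common outcome in these libraries. The median log2 fold change of the 8 tested members was -0.17, beside -0.03 for all genes tested.

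**Figure D1:**
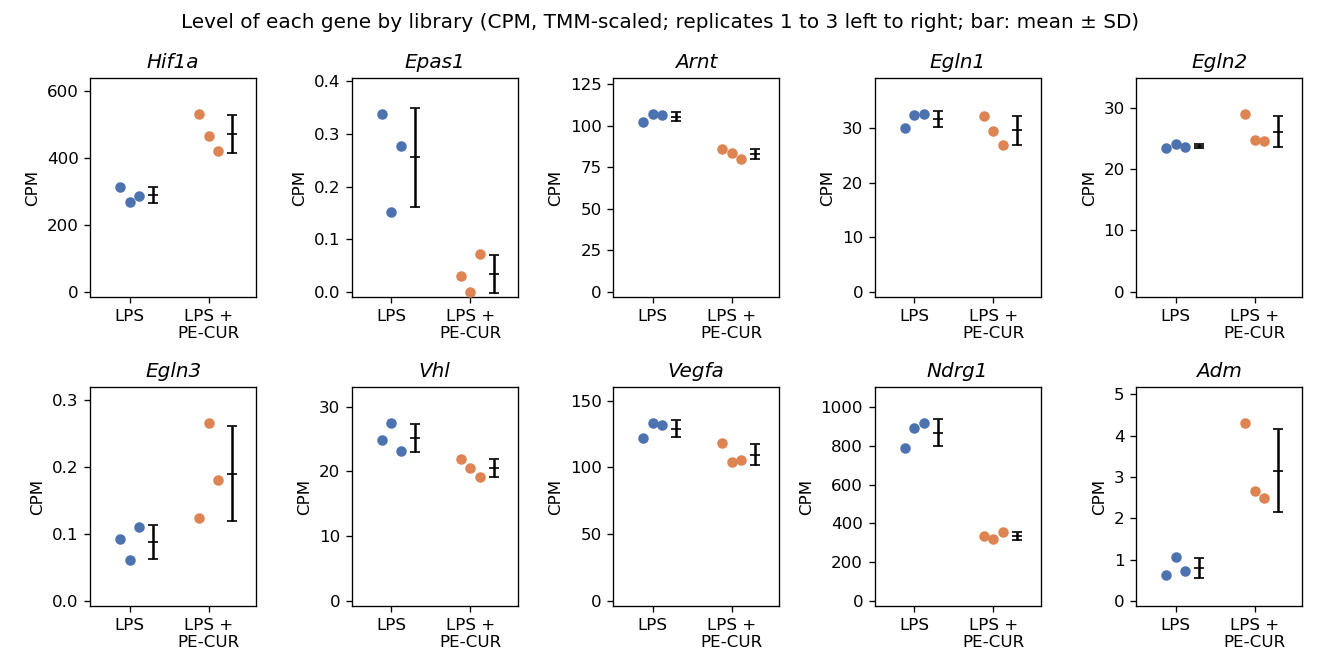
Level of each of the 10 genes in CPM scaled by TMM factors (y axis, a separate linear scale per gene), with 1 point per library and the mean ± SD of 3 libraries beside the points. The groups do not overlap except for Egln1, and those of 69.0% of all genes tested do not overlap either. The gap is narrow for Vegfa and Egln2. Epas1 and Egln3, which were not tested, rest on a handful of counts.

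The alpha subunit gene Hif1a (chromosome 12, 73901324 to 73947554, plus strand, protein coding) encodes the subunit through which macrophages raise glycolysis after LPS. Its level was 314, 269 and 284 CPM in LPS replicates 1 to 3 and 530, 463 and 419 CPM in LPS plus PE-CUR replicates 1 to 3. Every library with PE-CUR was above every LPS library, which also held, in either direction, for 69.0% of all genes tested. The means were 289 ± 22.8 and 471 ± 56.2 CPM (SD, n = 3; edgeR log2 change 0.70, SE 0.09, adjusted p = 1.04e-04). The rise kept its call with each library left out in turn, at log2 fold changes of 0.64 to 0.80. Without LPS plus PE-CUR replicate 3, the one of its group with hepatocyte transcripts, it was 0.80. The annotation has the antisense gene Gm15283 and, on the same strand, the protein-coding gene Gm49321 overlapping Hif1a. The sources used here do not give how shared reads and strand were handled in counting, and reads of these genes cannot be told apart from those of Hif1a. Same-strand overlaps are also annotated for Arnt (Gm42672, a processed pseudogene) and Epas1 (AC096777.1).

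Epas1 (chromosome 17, 86753864 to 86833410) encodes HIF-2 alpha, the other main alpha subunit, best known in endothelium and also present in some macrophages. LPS replicates 1 to 3 held 11, 5 and 10 of its counts, and the PE-CUR replicates held 1, 0 and 2. The PE-CUR libraries were below the LPS libraries in this handful of reads, 3 against 26 in all. The ratio of PE-CUR to LPS was 0.120 with an exact 95% interval of 0.0232 to 0.391, which covers counting error only. Without a filter on low counts Epas1 was called lower (edgeR log2 change -2.79, adjusted p = 0.00907), where 20.2% of 21604 genes were. Endothelial markers moved the same way, with 3 of 3 tested markers lower, beside 32.7% of all genes tested. Among them, Tie1 had 62, 35 and 90 counts in LPS and 3, 1 and 5 with PE-CUR. It passed the filter on low counts only through its LPS libraries, so its lower call supports nothing further. The part of endothelial marker transcripts in the Epas1 difference was not tested.

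Arnt (chromosome 3, 95434367 to 95497240) encodes the beta subunit, shared by both alpha subunits and by the aryl hydrocarbon receptor. It was at 102, 107 and 107 CPM in LPS and at 86.0, 83.2 and 80.2 CPM with PE-CUR, with no overlap. It fell from 105 ± 2.71 to 83.1 ± 2.93 CPM (SD, n = 3; edgeR log2 change -0.34, SE 0.06, adjusted p = 3.62e-04). The partners thus moved in opposite directions at the level of RNA. On the FPKM scale, which divides by gene length, Hif1a stood 2.80, 2.29 and 2.43 times above Arnt in LPS replicates 1 to 3. With PE-CUR these ratios were 5.62, 5.08 and 4.76, a description that uses the values above again.

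Among the hydroxylases, Egln1 (chromosome 8, 124908587 to 124949254) encodes PHD2, regarded as the main oxygen sensor of most cells. It was at 30.0, 32.3 and 32.6 CPM in LPS and at 32.3, 29.5 and 26.9 CPM with PE-CUR. The groups overlapped and the gene did not pass (edgeR log2 change -0.10, SE 0.08, adjusted p = 0.333). Egln2 (chromosome 7, 27158658 to 27166802), which encodes PHD1, was at 23.4, 24.0 and 23.6 CPM in LPS and at 29.0, 24.8 and 24.6 CPM with PE-CUR. The PE-CUR values were all above the LPS values, by a narrow margin in 2 libraries, and the gene did not pass (edgeR log2 change 0.14, SE 0.08, adjusted p = 0.168). On the deposited FPKM scale its groups overlapped, at 9.06 to 9.27 in LPS and 9.07 to 11.1 with PE-CUR. Egln3 (chromosome 12, 54178981 to 54203874) encodes PHD3, itself a well-known HIF target. It had 3, 2 and 4 counts in LPS and 4, 9 and 5 with PE-CUR, so at this depth a difference was not detectable (ratio 2.08, exact 95% interval 0.885 to 5.24). Without a filter it did not pass (edgeR log2 change 1.12, adjusted p = 0.310).

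Vhl (chromosome 6, 113623994 to 113631634) encodes the part of the ubiquitin ligase that binds hydroxylated HIF alpha. Its level was 24.8, 27.5 and 23.1 CPM in LPS and 21.9, 20.6 and 19.1 CPM with PE-CUR. The groups did not overlap, though LPS replicate 3 and LPS plus PE-CUR replicate 1 lay close. It fell from 25.1 ± 2.20 to 20.5 ± 1.39 CPM (SD, n = 3; edgeR log2 change -0.29, SE 0.09, adjusted p = 0.0159). The call was lost when 1 of 4 libraries was dropped from the fit, namely LPS replicate 1 (log2 fold change -0.26), LPS replicate 2 (-0.18), LPS plus PE-CUR replicate 2 (-0.25) and LPS plus PE-CUR replicate 3 (-0.22). The adjusted p-values of edgeR were then 0.0649 to 0.139.

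Of the target genes, Ndrg1 (chromosome 15, 66929318 to 66969641, minus strand) encodes a cytoplasmic stress protein that rises in hypoxia in many cell types and also answers to iron depletion. It was at 787, 894 and 918 CPM in LPS and at 332, 317 and 355 CPM with PE-CUR. No other member differed between groups by so large a number of reads, and the groups were far apart relative to the spread within them. Ndrg1 fell from 866 ± 69.9 to 335 ± 19.2 CPM (SD, n = 3; edgeR log2 change -1.37, SE 0.07, adjusted p = 1.25e-07). Its log2 fold change stayed between -1.40 and -1.29 with each library left out. Gm2895, an annotated transcript on the opposite strand that overlaps Ndrg1, had at most 59 counts in any library.

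Vegfa (chromosome 17, 46016993 to 46032377, minus strand) encodes the main growth factor of blood vessels and is the textbook HIF target. It was at 122, 133 and 132 CPM in LPS and at 118, 104 and 106 CPM with PE-CUR. The highest PE-CUR library lay just under the lowest LPS library. Vegfa fell from 129 ± 6.19 to 109 ± 7.86 CPM (SD, n = 3; edgeR log2 change -0.24, SE 0.07, adjusted p = 0.0102). The call ended without LPS replicate 2 (log2 fold change -0.17), LPS replicate 3 (-0.19), PE-CUR replicate 2 (-0.16) or PE-CUR replicate 3 (-0.19), at edgeR adjusted p-values of 0.0658 to 0.0984.

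Adm (chromosome 7, 110627657 to 110629820, plus strand) encodes adrenomedullin, a secreted peptide that widens vessels and dampens inflammation. It had 20, 35 and 26 counts in LPS and 140, 90 and 69 counts with PE-CUR, or 0.614, 1.07 and 0.719 CPM against 4.31, 2.65 and 2.49 CPM. All PE-CUR libraries were above all LPS libraries, and PE-CUR replicate 1 was well above the other two. Adm rose from 0.800 ± 0.237 to 3.15 ± 1.01 CPM (SD, n = 3; edgeR log2 change 1.98, SE 0.31, adjusted p = 2.18e-04). The log2 fold change lay between 1.71 and 2.27 with each library left out. The transcript was rare in both groups, so its fold change has the widest SE of the tested members. The antisense gene Gm28863 overlaps it and had at most 4 counts in any library.

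**Figure D2:**
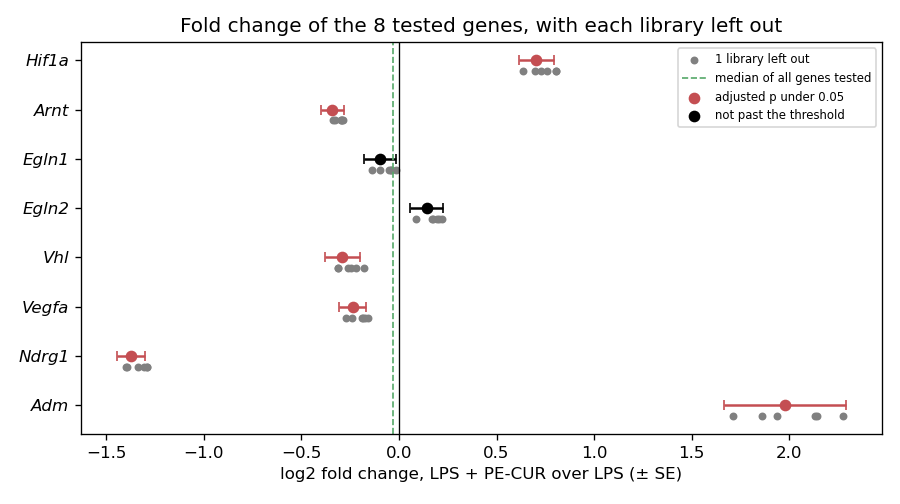
Log2 fold change (x axis, LPS plus PE-CUR over LPS, ± SE) of the 8 tested genes, with the fit repeated without each library (grey points) and the median of all genes tested, -0.03 (dashed line). Adm at 1.98 and Ndrg1 at -1.37 lie far from 0, whereas Vegfa at -0.24 and Vhl at -0.29 lie closer to it.

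Levels between genes were compared on the FPKM scale. In LPS the order was Ndrg1 (305 ± 25.4 FPKM), Hif1a (59.0 ± 4.68), Vegfa (31.5 ± 1.55) and Arnt (23.6 ± 0.645), and the ranges of neighbours in this order did not overlap. Vhl, Egln2 and Egln1 followed at 9.29, 9.18 and 9.15 FPKM and did not differ beyond their spread. Adm came next at 0.584 FPKM. The ranges of Epas1 and Egln3, at 0.0478 and 0.0292 FPKM, overlapped at the bottom, with Epas1 above Egln3 within each LPS library. With PE-CUR, the ranges of Ndrg1 (114 ± 6.99 FPKM) and Hif1a (92.6 ± 13.1 FPKM) overlapped at the top. Within each PE-CUR library Ndrg1 was still the higher, at 116, 106 and 119 FPKM against 107, 89.5 and 81.4 FPKM. Among the hydroxylases the ranges of Egln2 and Egln1 overlapped in both groups, and Egln3 lay far below them. Egln2 was above Egln1 within each PE-CUR library but not within each LPS library. Hif1a thus far exceeded Epas1 per length in every library.

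**Figure D3:**
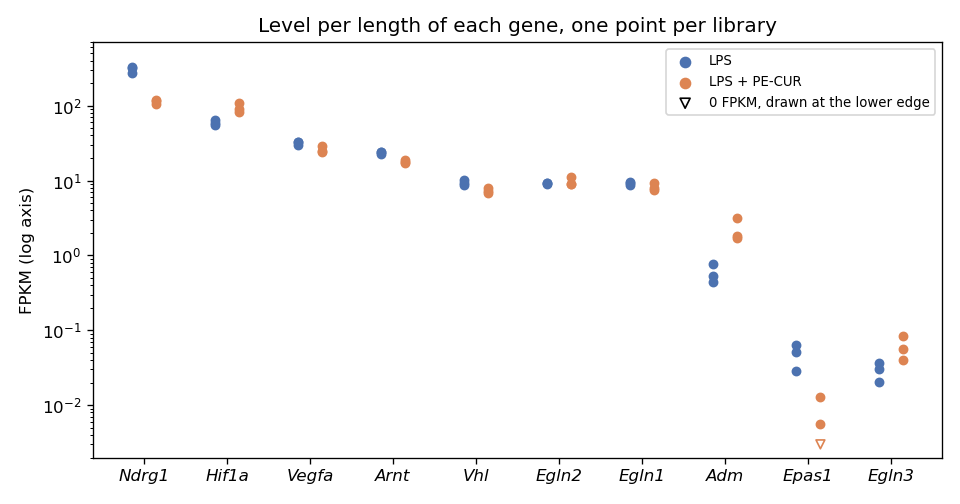
FPKM of each gene (log axis) in each library, ordered by the mean in LPS, with a library at 0 drawn as an open triangle. Ndrg1 and Hif1a stand apart in LPS. With PE-CUR their ranges overlap, though Ndrg1 is the higher within each library, and Ndrg1 was at 114 and Hif1a at 92.6 FPKM on average.

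Beyond the 10 genes, 4 lists of the pathway were followed. Among regulators of HIF stability and activity, 5 of 20 tested genes rose, 9 fell and 6 did not pass. The share called was 70.0%, beside 63.4% of all genes tested, and the median log2 fold change was -0.04, beside -0.03. Cited2, itself induced by HIF and a brake that competes with HIF-1 alpha for the coactivators CBP and p300, rose from 501 ± 38.4 to 1073 ± 52.1 CPM (SD, n = 3; edgeR log2 change 1.10, adjusted p = 3.36e-07). Hsp90ab1, a chaperone that holds HIF-1 alpha, rose from 1255 to 1998 CPM. Hif1an, the asparagine hydroxylase FIH that blocks coactivator binding, fell from 44.6 ± 2.04 to 32.3 ± 1.57 CPM (edgeR log2 change -0.47, adjusted p = 1.78e-04). Arnt2, a relative of Arnt best known in neurons, fell from 2.93 to 0.659 CPM. Siah1a, a ubiquitin ligase that targets prolyl hydroxylases, fell from 17.7 to 10.7 CPM and Os9 from 161 to 100.5 CPM. The coactivator gene Ep300 stood at 137 and 129 CPM and did not pass. Hsp90aa1 stood at 452 ± 68.5 and 640 ± 198 CPM and Rack1 at 1031 and 1123 CPM, and neither passed. Hsp90aa1 passed, upward, once LPS plus PE-CUR replicate 1 was dropped (log2 change 0.72). Rack1 passed as higher without LPS replicate 2 (0.17) or LPS plus PE-CUR replicate 2 (0.19), without a filter (0.18), with DESeq2 (0.14) and without mitochondrial and the most abundant genes (0.16). Without LPS plus PE-CUR replicate 1 the list had 8 higher calls.

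Of 21 glycolytic targets, all tested, 14 rose, 5 fell and 2 did not pass. The share called was 90.5%, beside 63.4% of all genes tested, and the median log2 fold change was 0.31, beside -0.03. Hk2, which traps glucose in the cell, rose from 139 to 247 CPM, the glucose transporter gene Slc2a3 from 27.0 to 48.2 CPM, Eno1 from 1057 to 1615 CPM and Pgk1 from 1216 to 1846 CPM. Slc2a1, the glucose transporter most tied to HIF-1 in macrophages, went the other way, from 445 ± 34.5 to 293 ± 16.0 CPM (SD, n = 3; edgeR log2 change -0.61, adjusted p = 1.97e-05), as did Aldoc, an aldolase, from 135 to 77.5 CPM. Aldoa (1740 and 1643 CPM) and Slc16a3, a lactate exporter (218 and 239 CPM), did not pass, though Slc16a3 passed as higher without LPS replicate 2 (log2 change 0.26) and without a filter (0.19). Several of these enzymes have near-identical pseudogene copies, and how such reads were counted is not given in the sources used here.

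Of 34 tested hypoxia targets outside glycolysis, 10 rose, 17 fell and 7 did not pass. The share called was 79.4%, beside 63.4% of all genes tested, and the median log2 fold change was -0.23, beside -0.03. Hilpda, a HIF target that inhibits fat breakdown in lipid droplets, fell from 312 ± 36.2 to 74.0 ± 8.16 CPM (SD, n = 3; edgeR log2 change -2.08, adjusted p = 6.27e-07). Angptl4, an inhibitor of lipoprotein lipase, fell from 14.2 to 3.77 CPM, Insig2, a brake on sterol synthesis, from 60.4 to 26.4 CPM, and Hmox1, which degrades haem, from 4281 to 1011 CPM. Several of these genes also answer to regulators other than HIF. Rising were Car12, a carbonic anhydrase of the cell surface, from 58.8 ± 2.95 to 125 ± 9.04 CPM (SD, n = 3; edgeR log2 change 1.09, adjusted p = 4.00e-07) and Nos2, which makes nitric oxide, from 334 to 577 CPM. Ak4 (90.4 and 85.7 CPM) and Fam162a (86.7 and 89.6 CPM) did not pass. Edn1 and Rora, named after their values were seen, lay at the ends of the list. Edn1, the vessel-narrowing peptide endothelin, rose from 3.11 to 11.4 CPM and Rora fell from 7.32 to 1.10 CPM. Higher and lower calls thus occurred in both target lists, and whether the lists differ was not tested.

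**Figure D4:**
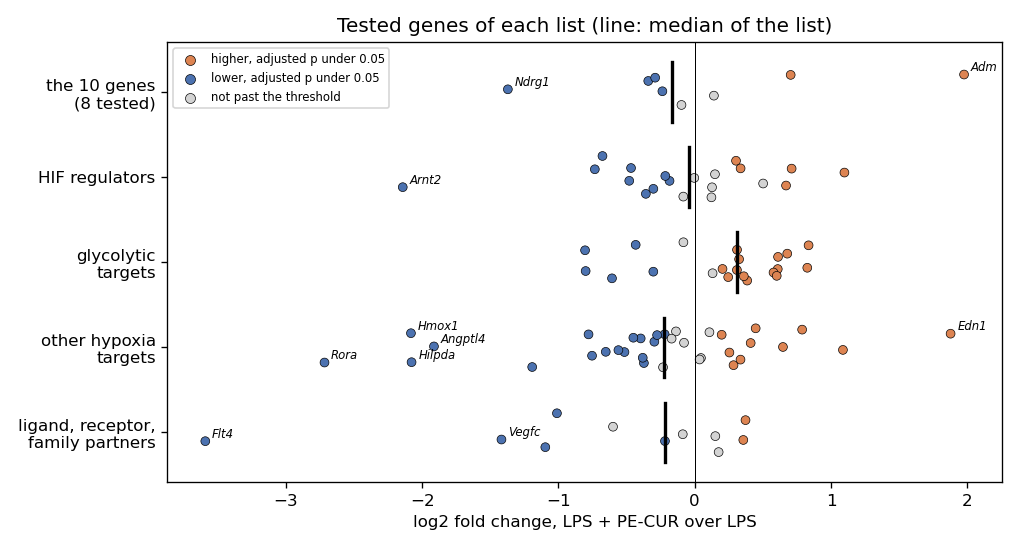
Log2 fold change (x axis, LPS plus PE-CUR over LPS) of every tested gene of the 10 genes and of the 4 further lists, 1 point per gene, with the median of each list as a vertical line and the farthest genes named. The median is 0.31 for glycolytic targets and -0.23 for other hypoxia targets, and points of both directions are found in each list.

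The last list holds relatives and receptors of the targets. Of 11 tested genes 2 rose, 5 fell and 4 did not pass. The share called was 63.6%, near the 63.4% of all genes tested, and the median log2 fold change was -0.22, beside -0.03. Calcrl, the receptor subunit for adrenomedullin, fell from 376 ± 48.5 to 176 ± 25.3 CPM (SD, n = 3; edgeR log2 change -1.10, adjusted p = 3.10e-04), while its ligand gene Adm rose. The accessory proteins that make this receptor selective for adrenomedullin come from Ramp2 and Ramp3, which had at most 7 counts per library and were not tested. Nrp1, a coreceptor of VEGF, fell from 70.8 to 35.2 CPM and Nrp2, its relative, rose from 847 to 1085 CPM. Vegfc, the growth factor of lymph vessels, fell from 4.30 to 1.59 CPM. Flt4, its receptor, had 24, 23 and 22 counts in LPS and 2, 2 and 1 with PE-CUR (ratio 0.0752, exact 95% interval 0.0237 to 0.184, counting error only). It passed the filter on low counts only through its LPS libraries, so its place among the 5 lower genes supports nothing further. Kdr, the main VEGF-A receptor of endothelium, had 10 to 16 counts in LPS and 2 in each PE-CUR library and was not tested. The endothelial markers given above, Kdr among them, were lower in the same libraries. Of the relatives of Ndrg1, Ndrg2 rose from 90.8 to 118 CPM, against the fall of Ndrg1, but missed the threshold with limma on log2(FPKM + 1) without a filter (adjusted p = 0.0714), and Ndrg3 stood at 67.5 and 63.5 CPM and did not pass. Vegfb (27.4 and 30.4 CPM) and Pgf (2.32 and 1.53 CPM) did not pass. Vegfb passed as higher without LPS replicate 2 (log2 change 0.26). Pgf, at an edgeR adjusted p of 0.0518, passed as lower with scaling by library size alone (log2 change -0.66), with the filter set at a mean of 1 CPM (-0.63) and in the limma fits on log2(FPKM + 1), with and without a filter (-0.30), and log2(FPKM + 0.1) (-0.59).

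The genes whose pattern over the 6 libraries lay nearest to Ndrg1 were Slc48a1, Creg1 and Maff, by the root mean square difference of centred log2 CPM (0.03, 0.04 and 0.04) among 9798 genes with a mean of at least 5 CPM. They fell at log2 fold changes of -1.40, -1.33 and -1.36. Nearest to Adm were Irf7, Cd93 and Depdc1b (0.25, 0.25 and 0.25), at log2 fold changes of 1.90, 1.64 and 1.74. With 2 groups, this likeness rests mostly on the size of the group difference.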

How the data were processed

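RNA was sequenced in 6 libraries, 3 per group, and column names equal to the sample titles gave groups and replicate numbers. The submitters' processing notes name mm10 as the build and list DESeq2, HTSeq, fastp and SAMtools. Not given in the sources used here: the aligner, the annotation and the strand setting. The authors deposited whole-number counts per gene symbol and FPKM values, which equal those counts divided by library total and 1 length per gene (tolerance 1e-04, relative) and served for levels between genes and for alternatives.

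Counts were fitted for all genes in R 4.3.3 with edgeR 4.0.16 (filterByExpr, TMM factors, robust quasi-likelihood test, group as the only term, two-sided), with Benjamini-Hochberg adjustment over the 13014 genes tested and a threshold of 0.05. SE is the log2 fold change over the root of F, and CPM is scaled by TMM factors except in marker sums. At these depths 1 CPM is 28.5 to 35.3 counts, so members near or under it have wide errors. The code was tested on simulated data. Alternatives used DESeq2 1.42.0 and limma 3.58.1 and are named in the closing section. Coordinates (RefSeq, GRCm38.p6) were found for 10 of 10 members. All members are named, and from each list up to 4 called genes with the smallest p in the majority direction, up to 2 in the other, and up to 3 that did not pass or were not tested, by level; a gene that this rule names is not reported here. Members, lists and rule were chosen with earlier results of these data known.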

Additional observations from a re-analysis of the deposited data

How the results depend on the processing

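The 10 genes kept 2 higher calls under all 18 alternatives run. These were scaling by library size alone or by median-ratio factors, no filter, a mean of at least 1 CPM, DESeq2, limma-voom, limma on log2(FPKM + 1) and log2(FPKM + 0.1) and without a filter, the replicate block, each library left out, removal of mitochondrial and the 10 most abundant genes, and, chosen after seeing the data, removal of hepatocyte and fibroblast marker genes. Lower calls of members ranged from 2 to 4 with a library left out, where Vhl or Vegfa or both lost theirs, with fewer samples. Hif1a, Arnt, Ndrg1 and Adm kept their calls throughout, while Adm fell to a log2 fold change of 1.01 on log2(FPKM + 1), a scale that shrinks rare genes. With libraries left out, HIF regulators had 5 to 8 higher and 7 to 8 lower calls, glycolytic targets 13 to 15 and 5, other targets 8 to 10 and 14 to 20, and partners 2 to 3 and 4 to 6. The 8 higher regulators came without LPS plus PE-CUR replicate 1, and also without a filter. Glycolytic targets had 12 higher calls with library size alone and with limma on log2(FPKM + 1) or log2(FPKM + 0.1). They had 10 with limma on log2(FPKM + 1) without a filter. Other targets had 6 higher calls on log2(FPKM + 1), with or without a filter, and partners 1 on that scale without a filter. The cause was not tested. Among named genes the sign turned in Aldoa, Ak4 and Fam162a, none of which passed in the main test or where it turned. With a library left out, Aldoa ranged from -0.10 to 0.010 and Ak4 from -0.14 to 0.049. Fam162a moved from 0.05 to -0.0087 with library size alone, to -0.0082 on log2(FPKM + 1) with and without a filter and to -0.0083 on log2(FPKM + 0.1). Epas1 was at -0.06 on log2(FPKM + 1) without a filter. The labels state no pairing by replicate number, and none was seen (correlations of deviations -0.10, -0.18 and -0.05 for equal numbers, none the best match). With 3 libraries per group, whose deviations from their own mean depend on each other, these correlations cannot decide whether samples were paired. With the replicate block 2 members were higher and 4 lower, and for all genes 3708 were higher and 3953 lower, against 4004 and 4252. Epas1, Egln3 and the rarer receptors are limited by depth.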
